A study of Homo sapiens with 4 samples.

Results

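The 8 genes described here are non-clustered protocadherins, PCDH1, PCDH7, PCDH9, PCDH8, PCDH10, PCDH17, PCDH18 and PCDH19, read by 22 probe sets of the 54675 on the array. A probe set belonged to the family when the platform annotation gave exactly one of these symbols and no other gene, and the 8 genes stand among 19775 with such a probe set. The family was selected on measured values: PCDH19 ranked 5 from the bottom among 12123 genes tested in the comparison of the GFP-RhoGDI2 line with the GFP line, and the other genes were taken as its relatives. Every difference of these 8 genes between the lines is therefore given as a description.

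Expression was measured on Affymetrix HG-U133 Plus 2.0 arrays in 2 groups of 2, all from UM-UC-3, a long-established line grown from a human bladder tumour. The control line carried GFP alone, from an empty vector introduced with a puromycin selection plasmid, and the experimental line carried GFP fused to RhoGDI2, the product of ARHGDIB. Both lines were stably transfected, sorted by fluorescence and harvested in log phase, and preparations A and B each held 1 array of either line. The sources used here do not say whether the lines are clones or pools, which promoter drove the transgene, or whether each preparation had its own transfection, so effects of making each line cannot be told apart from effects of the introduced gene. The comparison shows how these lines differ and not, by itself, which genes RhoGDI2 regulates.

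Protocadherins are cadherin-superfamily adhesion proteins whose extracellular cadherin repeats bind the same protein on a neighbouring cell, usually with weaker adhesion than classical cadherins, and whose cytoplasmic tails do not bind beta-catenin. The non-clustered genes lie apart from the large protocadherin clusters and fall into the delta-1 subgroup (PCDH1, PCDH7 and PCDH9), whose tails carry a docking motif for protein phosphatase 1, and the delta-2 subgroup (PCDH8, PCDH10, PCDH17, PCDH18 and PCDH19), several of which recruit the WAVE complex that builds branched actin downstream of Rac. They are best known from the developing brain, where they sort cells and guide axons, and promoter methylation of PCDH8, PCDH10 and PCDH17 has been described in several carcinomas.

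Promoter sequence was held for 7 of the 8 genes, all but PCDH10, from RefSeq on GRCh38.p14, each window running from 250 bases before to 50 bases after the annotated start. Those of PCDH19, PCDH9 and PCDH1 are shown because these are the genes of the 7 with a probe set past the filter on low values described below; capitals mark CCAAT and GGGCGG, searched on both strands with overlaps counted.
PCDH19 (chromosome X, 100410224 to 100410523, minus strand): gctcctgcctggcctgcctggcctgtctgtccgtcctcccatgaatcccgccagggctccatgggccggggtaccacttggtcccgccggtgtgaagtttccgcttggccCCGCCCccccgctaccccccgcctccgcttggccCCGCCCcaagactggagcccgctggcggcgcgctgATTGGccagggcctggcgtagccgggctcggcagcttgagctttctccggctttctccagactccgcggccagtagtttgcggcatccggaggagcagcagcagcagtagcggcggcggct
PCDH9 (chromosome 13, 67230287 to 67230586, minus strand): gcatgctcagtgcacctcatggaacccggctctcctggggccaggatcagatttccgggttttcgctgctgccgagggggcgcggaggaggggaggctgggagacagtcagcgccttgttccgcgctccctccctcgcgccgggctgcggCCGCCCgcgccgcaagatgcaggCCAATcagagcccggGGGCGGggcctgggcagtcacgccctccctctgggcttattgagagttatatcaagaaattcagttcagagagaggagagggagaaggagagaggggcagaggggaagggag
PCDH1 (chromosome 5, 141869578 to 141869877, minus strand): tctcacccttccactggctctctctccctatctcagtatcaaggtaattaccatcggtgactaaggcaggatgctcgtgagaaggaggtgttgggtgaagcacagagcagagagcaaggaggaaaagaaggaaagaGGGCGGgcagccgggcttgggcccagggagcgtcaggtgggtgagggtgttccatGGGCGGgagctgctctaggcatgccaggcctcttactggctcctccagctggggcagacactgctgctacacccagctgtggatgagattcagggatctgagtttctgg
The PCDH19 window was the richest in CG dinucleotides of the 7, with 26 of them and a GC content of 71.0%, against 20 and 65.7% for PCDH9, 6 and 58.0% for PCDH1, and a median of 14 over the 35116 promoters of the table. CCAAT was present in the windows of 6 of the 7 genes, PCDH1 being the one without it, and in 34.6% of all windows. GGGCGG was present in 4 of the 7, and in 45.0% of all windows. A match describes the letters only, and no binding or methylation was measured in this series.

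PCDH19 had the largest difference of the family. This delta-2 protocadherin, encoded on the X chromosome, binds N-cadherin in the same membrane and is mutated in an epilepsy that affects mainly females. Its only probe set, 227282_at, read 7.16 on GFP array A, 6.27 on GFP array B, 4.47 on GFP-RhoGDI2 array A and 4.41 on GFP-RhoGDI2 array B, in log2 RMA units. Both GFP arrays lay well above both GFP-RhoGDI2 arrays. The GFP mean was 6.72 ± 0.63 and the GFP-RhoGDI2 mean 4.44 ± 0.04 (SD, n = 2). Their difference was -2.27, made up of -2.69 in preparation A and -1.86 in preparation B. The GFP-RhoGDI2 level lay below the filter level of 4.637, the median of the mean value over all probe sets, so it is not shown to be above background and the size of the difference is uncertain. PCDH19 passed the filter through its GFP arrays. In RNA from a whole culture, fewer cells with the transcript and less transcript per cell cannot be told apart.

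The GFP arrays of PCDH19 also differed from each other. The 2 GFP values lay 0.886 apart, a gap reached or exceeded by 12 of the 12123 tested genes, or 0.099%, where the median gap between GFP arrays was 0.114. On the GFP-RhoGDI2 arrays its gap was 0.0541. With each array left out in turn, the PCDH19 difference ran from -2.72 without GFP array B to -1.83 without GFP array A, the gap between the GFP arrays setting both ends.

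PCDH10 had the next largest difference of the family, far smaller and in the opposite direction. PCDH10 encodes a delta-2 protocadherin that binds the WAVE-associated protein NCKAP1 and moves contacts along with migrating cells. Its probe set with the highest mean, 228635_at, read 6.80 (A) and 6.57 (B) with GFP and 7.33 (A) and 7.01 (B) with GFP-RhoGDI2. The GFP-RhoGDI2 arrays were both above the GFP arrays, by 0.53 in preparation A and 0.44 in preparation B, and the mean difference was 0.49. The other 3 PCDH10 probe sets, all at levels below the filter, differed among themselves. On 1556329_a_at both GFP-RhoGDI2 arrays were above both GFP arrays, with a difference of 0.38 (0.12 in A, 0.64 in B). On 1552925_at both were below, with a difference of -0.19 (-0.14 in A, -0.25 in B). The difference of 1556328_at was -0.01, with overlapping arrays. Averaged over the 4 probe sets the difference was 0.17.

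The other delta-2 genes read low on every array. PCDH8, whose rodent product arcadlin is induced by neuronal activity and drives N-cadherin internalisation, read 2.94 on both GFP arrays and 2.88 and 2.87 on the GFP-RhoGDI2 arrays. Its arrays did not overlap, yet the difference was only -0.06 at the low end of the scale. PCDH17, which recruits actin regulators to axon contacts, had 3 probe sets, the highest of which read 4.39 and 4.05 in GFP and 4.03 and 3.98 in GFP-RhoGDI2 cells, a difference of -0.22. Its other probe sets differed by -0.13 and 0.10. PCDH18, whose tail binds the adaptor DAB1, read 4.17 and 4.11 in GFP and 4.31 and 4.56 in GFP-RhoGDI2 cells on its higher probe set, a difference of 0.29 that was 0.13 in A and 0.45 in B. Its other probe set differed by 0.03. No array of these 3 genes reached the filter level, so a transcript was not shown to be present.

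Of the delta-1 genes, PCDH1 and PCDH9 read above the filter level, with differences close to 0 between the lines. PCDH1, an adhesion protein of airway epithelium, read 5.80 and 5.93 in GFP and 5.86 and 5.83 in GFP-RhoGDI2 cells on 203918_at, with overlapping groups and a difference of -0.02 (SE 0.0968). Its other probe set, 215277_at, differed by 0.32 at levels from 3.28 to 3.76. PCDH9, an adhesion protein of the nervous system, read 6.25 and 6.62 in GFP and 6.19 and 6.66 in GFP-RhoGDI2 cells on 219738_s_at, a difference of -0.01 (SE 0.0941). On this probe set the arrays of preparation B were both above those of preparation A, so its spread followed the preparation and not the line. The 3 remaining PCDH9 probe sets were below the filter and differed by -0.38, -0.08 and -0.14. On 219737_s_at (-0.38) and 1565602_at (-0.08) both GFP arrays were above both GFP-RhoGDI2 arrays.

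PCDH7, a delta-1 protocadherin whose tail binds the phosphatase inhibitor SET, had 5 probe sets and none past the filter. The highest, 205534_at, read 4.50 and 4.11 in GFP and 4.29 and 3.93 in GFP-RhoGDI2 cells, with overlapping groups and a difference of -0.19. The other 4 differed by -0.05 to 0.15.

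**Figure D1:**
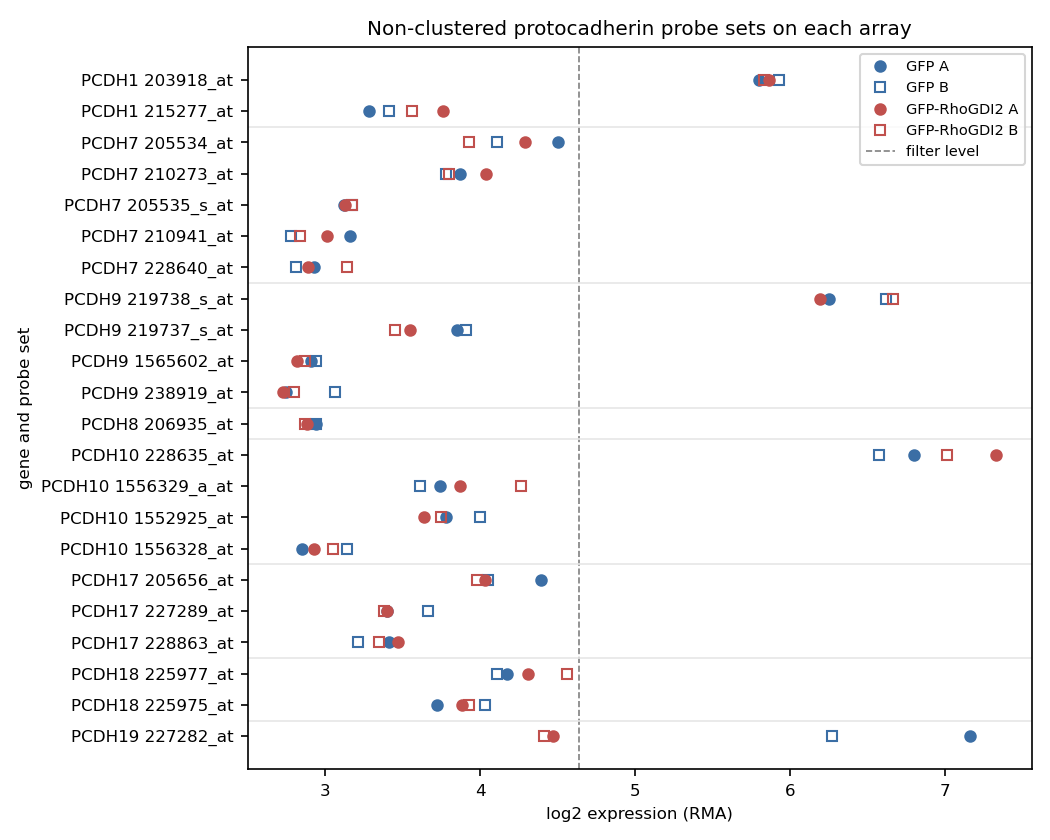
Log2 RMA expression (horizontal axis) of the 22 probe sets of the 8 genes (vertical axis) on each of the 4 arrays, with circles for preparation A and squares for B, and a dashed line at the filter level of 4.637. Only 1 probe set each of PCDH1, PCDH9, PCDH10 and PCDH19 had a mean above the line, and the PCDH19 arrays of the GFP-RhoGDI2 line, at 4.47 and 4.41, lie left of it.

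Over all 22 probe sets, 7 were higher and 8 lower in GFP-RhoGDI2 cells in both pairs, and 7 had opposite signs. The median difference was -0.02, beside -0.013 over all tested genes, and without PCDH19 the differences ran from -0.38 to 0.49. In 10 of the 22 probe sets the arrays of the lines did not overlap, 6 with GFP above and 4 with GFP-RhoGDI2 above; over all probe sets with no filter, 43.9% did not overlap. Past the filter, 4 of the 8 genes remained, 2 of them without overlap, where 54.5% of tested genes had none.

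**Figure D2:**
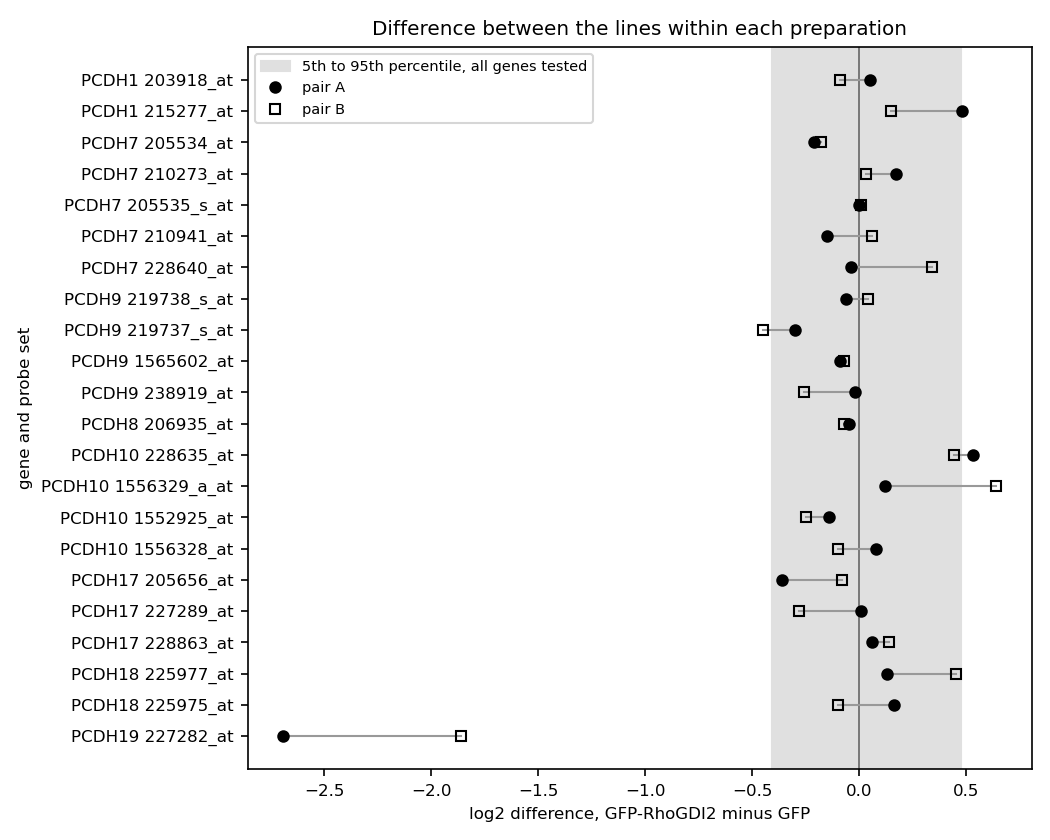
Log2 difference, GFP-RhoGDI2 minus GFP, in pair A (filled circles) and pair B (open squares) for the same 22 probe sets; the grey band spans the 5th to 95th percentile of the difference over all genes tested, -0.409 to 0.474. PCDH19, at -2.69 and -1.86, lies far left of the band, PCDH10 228635_at straddles its right edge at 0.53 and 0.44, and most other probe sets lie within it.

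In the limma fit over the whole table, with preparation as a block, 2 of the 4 members past the filter were called at adjusted p under 0.05, PCDH19 lower and PCDH10 higher. Across all tested genes 8.17% were called, 4.83% higher and 3.35% lower. Because the family was chosen with this contrast known, nothing is read from that count. PCDH10 was not among the called genes without the block, where its difference was still 0.49, whenever 1 array was left out, with no filter, or after quantile normalization, where it was 0.46.

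The contrast that the choice of genes did not use is that between preparations. limma called 0 of the 4 members between preparations B and A, as it did 0 of the 12123 tested genes (0%), with 1217 genes and 2 members, PCDH9 and PCDH10, at an unadjusted p under 0.05. The B minus A difference of PCDH9 was 0.42 (SE 0.0941, limma adjusted p = 0.369), with 0.37 in GFP and 0.47 in GFP-RhoGDI2 cells. That of PCDH10 was -0.27 (SE 0.0938, limma adjusted p = 0.407). PCDH19 had the difference of greatest size of the 4, -0.47, with a larger error (SE 0.197, limma adjusted p = 0.445). This difference was -0.89 in GFP and -0.05 in GFP-RhoGDI2 cells, where PCDH19 read below the filter level. With a prior variance that follows intensity (limma's intensity trend), 190 genes were called between preparations, 1.57% of those tested, and 0 of these 4, with limma adjusted p = 0.0945 for PCDH9, 0.18 for PCDH19 and 0.253 for PCDH10.

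Of the other non-clustered genes listed, PCDH11X read below the filter and PCDH12, an endothelial and trophoblast protocadherin, was not called at 0.03 (SE 0.0951, limma adjusted p = 0.859). Of 53 clustered protocadherins, which give neurons their individual surface identity, 33 had a single-gene probe set, 9 passed the filter, 1 fell and 0 rose, with a median of -0.14. The gene that fell was PCDHB6, which read 5.48 and 5.76 in GFP and 4.82 and 5.33 in GFP-RhoGDI2 cells, a difference of -0.54 (SE 0.104, limma adjusted p = 0.0392). Both GFP arrays were above both GFP-RhoGDI2 arrays, but a second PCDHB6 probe set differed by 0.06 (limma adjusted p = 0.743). The call was lost without the block (limma adjusted p = 0.158) and without each array in turn, from 0.0972 without GFP-RhoGDI2 array B to 0.467 without GFP-RhoGDI2 array A, where the difference was -0.28; without GFP array A it was -0.68 (0.154) and without GFP array B -0.40 (0.367). Clustered genes share closely related exons, so their probe sets may read more than 1 gene.

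The large and atypical cadherins, such as the giant cadherins FAT1 and FAT4, the planar polarity receptors CELSR1 and CELSR3 and the calsyntenin CLSTN1, rose in 0 and fell in 0 of 8 genes past the filter of 19 matched by limma, with a median of 0.02. The largest differences were 0.23 for CLSTN1, -0.11 for CELSR1 and -0.11 for CELSR3. The count was also 0 with an intensity trend, and 0 of the 8 had an unadjusted p under 0.05.

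The WAVE complex and the actin regulators that delta-2 tails recruit were measured in 14 genes, all past the filter, and limma called 0 of them, 4 having an unadjusted p under 0.05, with a median of 0.11 beside -0.013 for all genes tested. The largest differences were those of RAPH1, which encodes lamellipodin, at 0.38 (8.50 and 8.46 in GFP, 8.73 and 9.00 in GFP-RhoGDI2 cells; limma adjusted p = 0.1), the WAVE subunit CYFIP1 at 0.36 (11.59 and 11.51 against 11.90 and 11.93; 0.0794) and the Ena family gene ENAH at 0.36 (10.19 and 10.05 against 10.36 and 10.59; 0.132). In each of these genes, picked for the size of their difference, both GFP-RhoGDI2 arrays were above both GFP arrays. Of all tested genes, 54.5% had arrays that did not overlap, in either direction. With the intensity trend, which called 23.7% of all tested genes and 11.6% higher, 5 of the 14 were called, all higher: CYFIP1 (limma adjusted p = 7.06e-05), BRK1 (0.00309), ENAH (0.00315), RAPH1 (0.00692) and ABI1 (0.0415).

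Of 10 further reported partners past the filter, 1 rose and 0 fell, with a median of -0.06. The gene that rose was CDH2, which encodes N-cadherin, the partner of PCDH19 and PCDH8. It read 5.46 and 5.34 in GFP and 6.04 and 6.12 in GFP-RhoGDI2 cells, a difference of 0.68 (SE 0.1, limma adjusted p = 0.0201) that was 0.58 in A and 0.78 in B. Its second probe set differed by 0.49 (limma adjusted p = 0.0644). The call held without the block (limma adjusted p = 0.0194) and without GFP array A (0.04), and was lost without GFP array B (0.0643), GFP-RhoGDI2 array A (0.0776) or GFP-RhoGDI2 array B (0.113), with differences from 0.62 to 0.74. CDH2 also counts among the mesenchymal markers below. The phosphatase 1 subunit gene PPP1CB, at 0.33, and PPP1CC, at -0.20, and SET, at -0.24, were not called. TAOK2, at -0.29, and TAF1, at -0.27, had lower differences and were not called either. With the intensity trend, which called 23.7% of all tested genes, 5 of the 10 were called. They were CDH2 (limma adjusted p = 0.00135), PPP1CB (0.000288), PPP1CC (0.00175), SET (0.00386) and TAF1 (0.0407). The mean over its probe sets past the filter put SET at -0.52 (limma adjusted p = 0.00735).

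**Figure D3:**
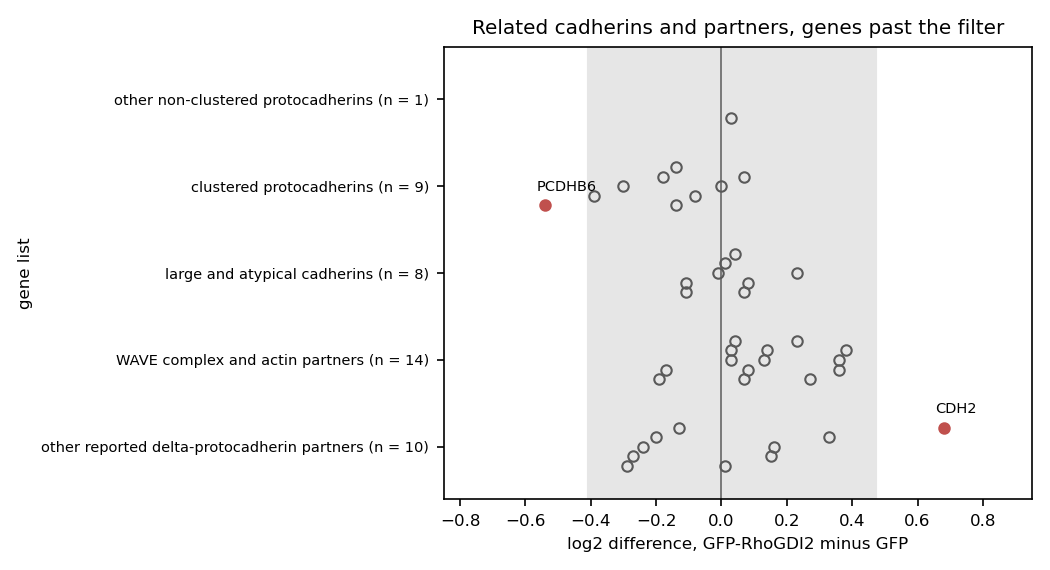
Log2 difference, GFP-RhoGDI2 minus GFP (horizontal axis), of each gene past the filter in 5 lists of related cadherins and partners (vertical axis; vertical scatter within a list separates points); filled points passed the limma test and the grey band spans the 5th to 95th percentile of all genes tested. PCDHB6 at -0.54 and CDH2 at 0.68 are the filled points, and the other points lie within the band.

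The genes nearest PCDH19 on the X chromosome differed less than it did, a contrast set up by choosing PCDH19 for its low rank. Over the 20 tested genes nearest it, 10 on each side, the median difference was 0.05, and the largest was -0.82 for ZNF711. Of the 20, 1 was called higher and 3 lower, where 4.83% and 3.35% of all tested genes were. The genes flanking PCDH19 directly among those tested, RPA4 and TSPAN6, differed by 0.05 and 0.23. Around PCDH10 the median was 0.05, with HSPA4L called higher (0.54) and the largest difference at SLC7A11 (-0.66, not called). PCDH18 shares 19 of those 20 neighbours and had a median of 0.08, with 2 called higher, PCDH10 among them. PCDH8 and PCDH17 share all 20 of theirs on chromosome 13, with a median of -0.13, 1 called higher and 3 called lower. The largest difference there was at the copper transporter gene ATP7B (-1.17). PCDH9 shares 15 of these, with 3 of its 20 neighbours called higher and 2 lower. Its neighbours ranged from -1.17 to 2.44, the latter at the transcription factor gene KLF12. Around PCDH1 the median was -0.03 with 0 called and the largest was SPRY4-IT1 (-0.46), and around PCDH7 it was -0.14 with 4 called lower, ARAP2 most (-1.34). Copy number was not measured, and its part in any difference was not tested.

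**Figure D4:**
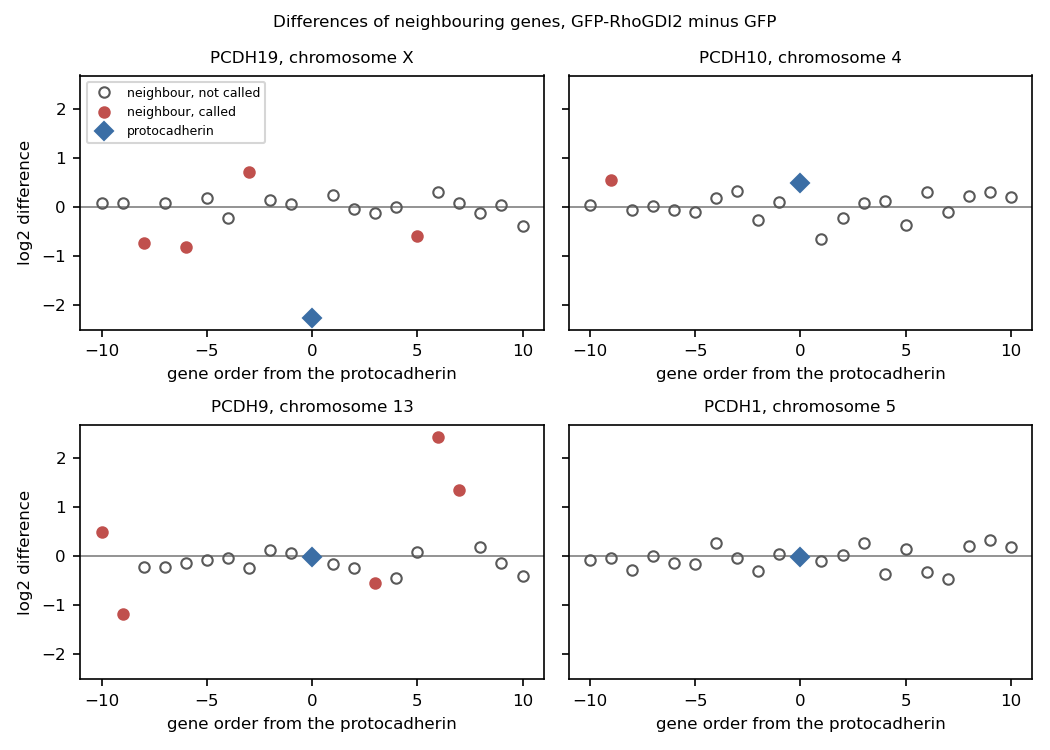
Log2 difference, GFP-RhoGDI2 minus GFP (vertical axis), of the 10 tested genes on each side of PCDH19, PCDH10, PCDH9 and PCDH1 in chromosomal order (horizontal axis, in genes), with the protocadherin as a diamond at 0 and called neighbours filled. PCDH19 at -2.27 lies below all of its 20 neighbours, the lowest of which is at -0.82. PCDH19 was chosen for its low rank among the tested genes, which sets up this contrast.

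The genes whose pattern over the 4 arrays was closest to that of PCDH19, by the Euclidean distance between values centred on each gene's mean, were HAPLN1 (0.69), RBP7 (0.80), ST3GAL1 (0.84), PTPRD (0.85) and CA2 (0.88). All had GFP arrays above GFP-RhoGDI2 arrays, with differences from -2.89 to -1.49. Because they were picked for likeness to PCDH19, this shared direction and size follow from the choice. The closest genes to PCDH10, PCDH9 and PCDH1 were MSL3 (0.03), ELOVL7 (0.05) and TAF13 (0.01). With 4 arrays such likeness is a description.

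The introduced gene ARHGDIB was higher in the GFP-RhoGDI2 line on its highest probe set, by 5.37; its other probe sets differed by 0.94 and by -0.02, the latter with overlapping arrays. Array medians ran from 4.62 to 4.65, and arrays carry no read depth, so their number limits the precision. Of 15 matched urothelial and epithelial markers, 10 were below the filter, including the uroplakin genes, EPCAM and CDH1. KRT18 read 13.60 in GFP and 13.01 in GFP-RhoGDI2 cells and KRT8 9.69 and 8.45. KRT8 and KRT18 fell, PPARG rose (1.27), and KRT7 (-0.15) and GATA3 (-0.20) were not called. The summed log2 level of the 15 was 76.2 and 77.5 on the GFP and 76.8 and 75.6 on the GFP-RhoGDI2 arrays. Mesenchymal markers were past the filter in 6 of 7, with VIM at 13.78 and 13.96; SNAI2 (2.03) and CDH2 rose, and the summed log2 level of the 7 was 50.3 and 49.8 on the GFP and 53.0 and 54.7 on the GFP-RhoGDI2 arrays. Of 8 neural markers, 4 were past the filter and SNAP25 rose (0.83), though its arrays overlapped (4.72 and 5.66 in GFP, 5.50 and 6.54 in GFP-RhoGDI2 cells) and preparation B was above A by 0.99, with a summed level of 34.9 and 35.3 against 35.2 and 36.3. All 4 matched leukocyte markers were below the filter, with a summed level of 14.8 and 15.4 against 15.7 and 14.9, and 3 of 4 endothelial markers were too, at 17.5 and 17.1 against 16.9 and 17.3. The part of these shifts in the protocadherin differences was not tested.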

How the data were processed

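RNA from 4 UM-UC-3 cultures was hybridised to 1 array each. The deposited values are on a log2 scale, 1 per probe set. The authors made them with RMA, per the submitters' processing notes, which name no software or version. No further normalization was applied. Groups came from the titles, because the free-text description given for the GFP-RhoGDI2 arrays is that of the control; source and growth protocol name the same groups as the titles.

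Of 54675 probe sets, 62 controls were left out; 41091 of the rest had 1 gene symbol, 1801 several and 11721 none listed. Probe sets with a mean at or above the median mean, 4.637, entered the test: 27307, for 12123 genes, each read from the probe set of highest mean. limma 3.58.1 in R 4.3.3 (lmFit, eBayes) was fitted to all of them with preparation as a block, since the labels state that A and B are paired, and p-values were adjusted by Benjamini-Hochberg across every probe set in the fit. The fit had 1 residual degree of freedom, 4.71 prior degrees of freedom and a prior SD of 0.101. The preparation differences of the lines correlated across probe sets at r = 0.264. The script was tested on simulated data.

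The named genes are the members, ARHGDIB, in each list the called genes or else the 3 with the largest difference, the closest patterns and the neighbours. PPP1CB, PPP1CC, SET, TAOK2, TAF1, BRK1, ABI1, FAT1 and FAT4, and some markers and neighbours, were named beyond that rule after their values were seen. Of 107 related genes and partners listed, 81 had a single-gene probe set; the rest were not analysed here. The members and lists were chosen with earlier results of these data known. In the fit with the block, p-values rest on how far the line difference disagreed between the preparations, moderated by a variance shared across probe sets. They do not measure the spread between independently made lines. The alternatives dropped the block or 1 array, or changed the filter, the moderation, the normalization, the probe set choice or the threshold, with a 2-fold rule besides.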

Additional observations from a re-analysis of the deposited data

How the results depend on the processing

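Of 64 recomputed differences of the 8 protocadherins, 60 moved by less than the spread between arrays and 0 of the called ones changed sign. That count is no measure of stability. Dropping the block leaves a difference unchanged, and leaving out 1 of 2 arrays cannot move it beyond this spread. The mean over all probe sets of a gene, with no filter, moved PCDH1 to 0.15, PCDH10 to 0.17 and PCDH18 to 0.16. Quantile normalization moved PCDH8 to -0.03. Unless stated otherwise, 12123 genes were tested. Without the replicate block, 641 genes were called, all among the 991 of the fit with it, and 1 member (PCDH19), 0 clustered protocadherins and 1 partner. With 1 array left out, and the lone array assumed to vary like the others, 215 to 421 genes were called, 1 member each time, 0 clustered protocadherins and 0 or 1 partners. With no filter, 695 of 19775 genes were called, among them 1 of 8 members and 0 clustered protocadherins. Above the upper quartile, 1876 of 7442 genes were called, with 902 higher and 974 lower, and 4 of the 11 WAVE list genes that remained. There 0 members and 0 clustered protocadherins could be called because none remained. An intensity trend gave 2879 genes, 5 of the WAVE list, 5 partners and 190 genes between preparations. Averaging only the probe sets of each gene past the filter gave 2031 genes and 0 clustered protocadherins. It called 2 members, PCDH10 and PCDH19, each with 1 probe set past the filter. It also gave 2 of the WAVE list, 2 partners and 1 gene between preparations. Quantile normalization gave 861 of 12122 genes and left 1 member. At adjusted p under 0.01 there were 243 genes, 1 member, 0 clustered protocadherins and 0 partners, and at under 0.10 1971 genes, 1 of the WAVE list and 2 partners. The 2-fold rule gave 202 genes, 1 member, 0 clustered protocadherins, 0 partners and 2 genes between preparations. The causes were not tested. Without detection calls, values below 4.637 are not shown to be above background, which limits PCDH19 in the GFP-RhoGDI2 line and every probe set of PCDH7, PCDH8, PCDH17 and PCDH18.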
